A study of Mus musculus with 3 samples.

Results

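Translation factors and tRNA synthetases were followed across 3 sorted cell populations of IL-10 Venus reporter mice. The genes were taken by name: every gene whose symbol in the platform annotation begins with Eif or Eef and a number or is Eprs, or has the form of an aminoacyl-tRNA synthetase symbol of 1 capital letter and "ars", with or without a final 2. Eif2ak3, which encodes the stress sensor PERK, was left out of the set. This gave 75 genes on 77 probes, of 16390 named genes on the array. The 4 genes listed under Eif2c1 to Eif2c4 are known today as Ago1 to Ago4 and encode Argonaute proteins, which carry small RNAs and are not initiation factors, and they are described apart. The rule used symbols and no measured value, though earlier results of these data were known when the genes were chosen.

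From the spleen, B220+ cells and Venus+ CD138hi cells were sorted, and from the bone marrow Venus+ CD138hi cells. All 3 came from mice that carry the same reporter, in which the fluorescent protein Venus marks expression of the cytokine gene Il10. B220 is a surface form of CD45 carried by B cells, and CD138, the product of Sdc1, is a surface proteoglycan that marks plasma cells. The labels do not say whether the B220+ sort left out Venus+ cells, and no source used here gives strain, age, sex or the number of mice in a sort. The series' title places the sorts in a study of Blimp1, IL-10 and immunoglobulin class switching. A single-colour oligonucleotide array was hybridized with the RNA of each population. With 1 array per population there is no replicate check, so no p-value is given, and animals, sorts and arrays cannot be told apart from the populations.

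Translation begins when eIF2, loaded with GTP and the initiator tRNA, joins the small ribosomal subunit with eIF3, eIF1, eIF1A and eIF5, while eIF4E, eIF4G and eIF4A bring in the capped mRNA. Kinases that phosphorylate eIF2 turn it into an inhibitor of its exchange factor eIF2B, which lowers general initiation and favours translation of the transcription factor ATF4. The elongation factors eEF1 and eEF2 then deliver charged tRNAs and move the ribosome, and the aminoacyl-tRNA synthetases charge those tRNAs. Plasma cells are known for secreting antibody in large amounts, which rests on sustained protein synthesis.

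Values are normalized signals: the median intensity of a spot less the mean of the blank spots, scaled so that the median of the detected probes of an array is 25. A probe counted as detected above the blank mean plus 2 SD, and the lowest detected signals were 1.34 on the B220+ array, 1.74 on the spleen Venus+ array and 2.35 on the bone marrow Venus+ array. Of 23473 probes, 67.6% to 73.4% were detected. A signal is compared with the same probe on another array, as a log2 ratio with a spot error (±) that covers the spread of blank and repeated control spots within arrays and nothing between animals. A gene was called higher or lower where it was detected on both arrays and differed at least 2-fold, a log2 ratio of 1.

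The sorts carried the markers of their labels. All 7 plasma cell markers on the array were detected in both Venus+ populations, with signals summing to 2386 on the B220+ array, 27552 on the spleen Venus+ array and 35216 on the bone marrow Venus+ array, and the 9 mature B cell markers summed to 29915, 10570 and 4511. Markers of other cells moved too. The 9 granulocyte markers summed to 5095 in B220+ cells (8 detected), 25.7 in spleen Venus+ cells (3 detected) and 222 in bone marrow Venus+ cells (8 detected). The 9 T cell markers summed to 45.3, 858 and 1128, of which the Cd247 probe gave 15.7, 637 and 1038. The 6 basophil, mast cell and eosinophil markers summed to 27.3, 4694 and 6231, of which the Prg2 probe gave 3.84, 4646 and 6082. Monocyte and macrophage markers summed to 71.4, 138 and 272, erythroid markers to 132, 17.6 and 32.4, and NK markers to 6.56, 9.79 and 8.87. Such lists differed in all 3 comparisons, the granulocyte list also between the Venus+ populations, and their part in the results was not tested.

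Most of these genes differed less than 2-fold between the 3 populations. Detected on all 3 arrays were 69 of the 75, 4 were detected on some arrays (Eif2s1, Iars2, Wars2 and Eif2c3), and the probes of Aars and Eif5a2 were not above background on any. Against B220+ cells 0 of the 75 were detected on the Venus+ array alone, where 3.13% of all genes were so in spleen and 3.98% in bone marrow with a bound of 2-fold or more, and 0 were detected in bone marrow but not in spleen Venus+ cells (0.451% of all genes). These shares are not alike in base. The B220+ array detected 73 of the 75, against 12165 of 16390 named genes, so only Aars and Eif5a2 could have appeared on a Venus+ array alone. Of the 69, 43 (62.3%) stayed under 2-fold in all 3 comparisons, against 43.2% of the 10769 genes of the array detected on all 3 (4647 genes). The signal stood highest in B220+ and lowest in bone marrow Venus+ cells for 28 of the 69 (40.6%, against 40.8% of all genes detected on the 3 arrays), ran the other way for 8 (11.6%, against 30.1%) and followed neither order for 33, under the scaling used here. The largest ratios to B220+ cells were those of Eef1a2 upward and of Eif2c2 and Eif2ak4 downward in bone marrow Venus+ cells, the last 2 falling short of 2-fold under normexp with local background.

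**Figure D1:**
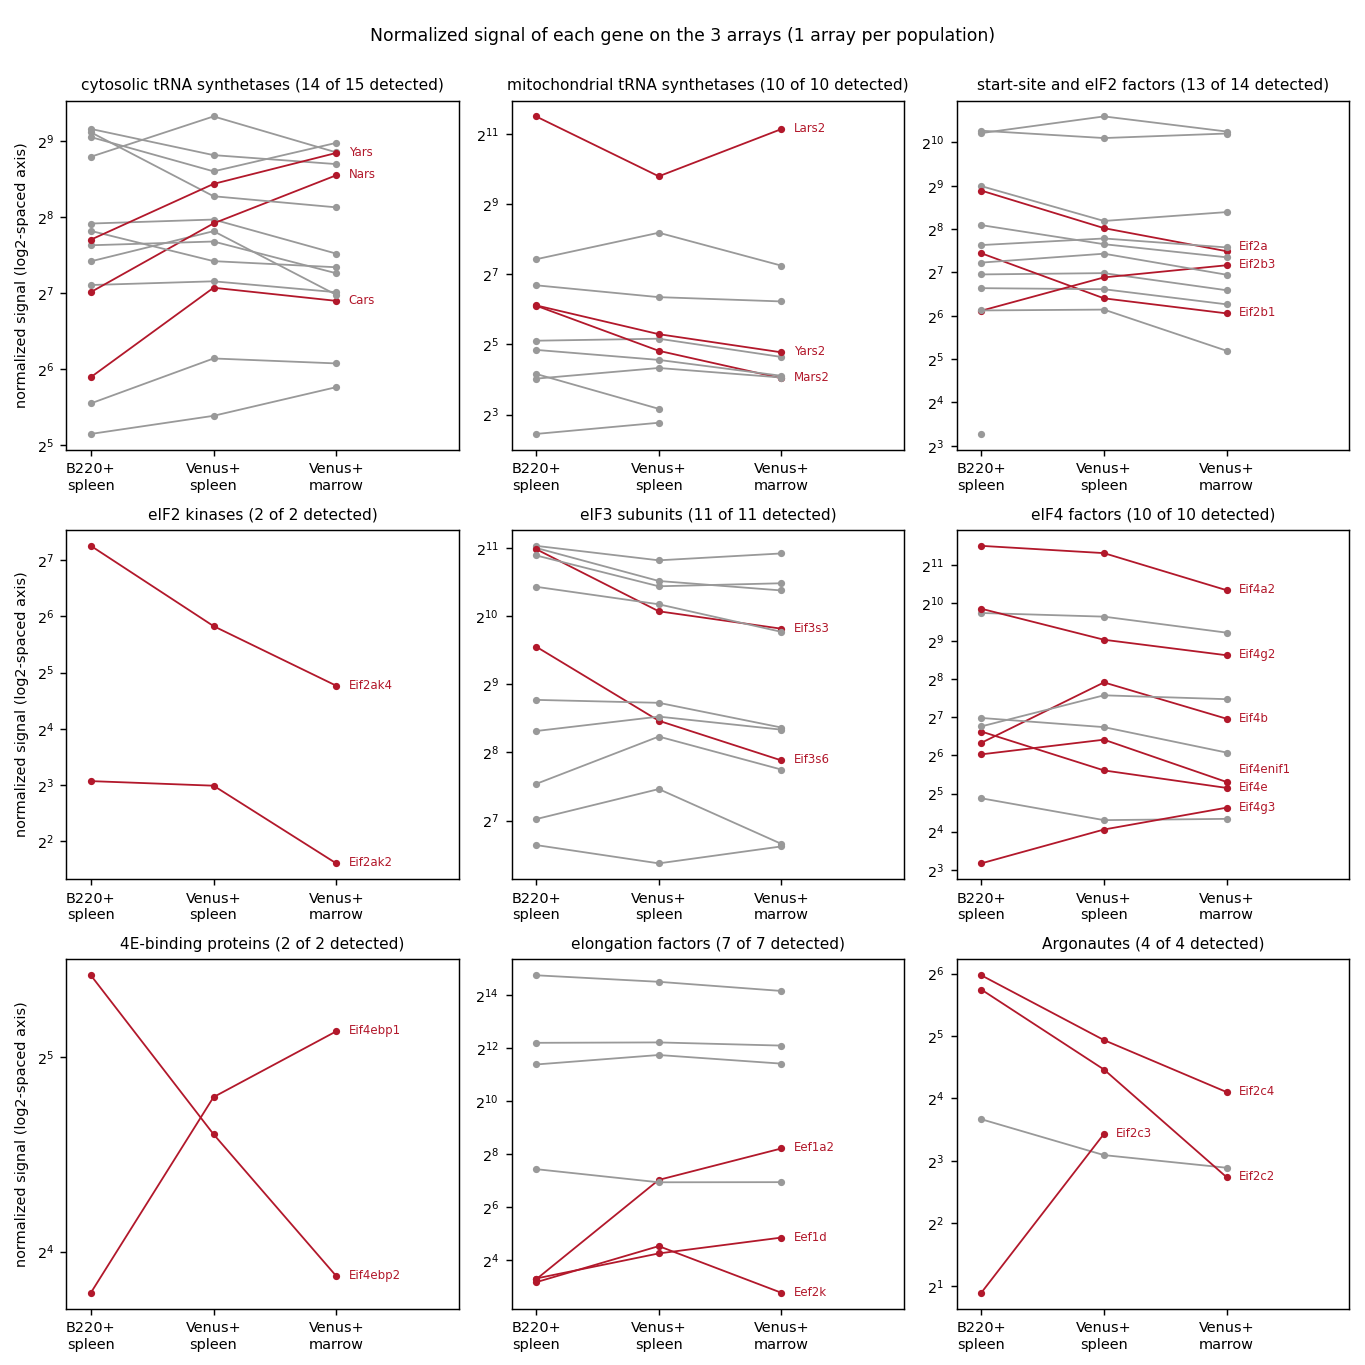
Normalized signal (log2-spaced axis) of each gene on the 3 arrays, in 9 panels by role, with 1 line per gene and no point where a gene was not detected; genes at least 2-fold apart in any comparison are red and named. Most lines are grey, under 2-fold in each comparison, while Eef1a2 climbs from 9.70 to 298 and Eif2ak4 drops from 152 to 27.2.

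In spleen Venus+ against spleen B220+ cells, 72 genes were detected on both arrays. At least 2-fold higher were 6 of them (Cars, Eef1a2, Eef2k, Eif2c3, Eif4b and Eif4ebp1), and at least 2-fold lower were 8 (Eif2ak4, Eif2b1, Eif2c2, Eif2c4, Eif3s6, Eif4e, Lars2 and Mars2). Over all genes of the array detected on both, 15.7% were higher and 16.5% lower, 32.2% in either direction, against 19.4% of these. Their median log2 ratio was -0.06, with -0.02 over all genes, and the median size of the ratio, whatever its direction, was 0.47 against 0.66.

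In bone marrow Venus+ against spleen B220+ cells, 69 genes were detected on both arrays, with 8 higher and 14 lower. Over all genes 22.4% were higher and 30.7% lower, 53.1% in either direction, against 31.9% of the translation genes. The median log2 ratio was -0.41, which lay 0.16 below the all-gene median of -0.24. The median size of the ratio was 0.60 against 1.08 over all genes.

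Between the 2 Venus+ populations the same 69 genes could be compared, and 2 were higher in bone marrow (Eef1a2 and Lars2) and 5 lower (Eef2k, Eif2ak2, Eif2ak4, Eif2c2 and Eif4enif1). Over all genes 4.33% were higher in bone marrow and 15.2% lower, 19.5% in either direction, against 10.1% of these. Their median log2 ratio was -0.35, against -0.17 over all genes. Signals of the Venus+ arrays depend on how the arrays are scaled to each other. With scaling to probes detected on all 3 arrays, the all-gene median moved from -0.24 to 0.05 in bone marrow Venus+ against B220+ cells and from -0.17 to 0.16 between the Venus+ populations, and the medians of the translation genes moved with it to -0.12 and -0.015. The share of higher genes among all genes called went from 42.2% to 53.9% and from 22.2% to 57.7% with that scaling, and to 50.9% in both with quantile normalization. Relative to all genes the translation genes lay 0.16 and 0.17 below under the scaling used here. Scaling to probes detected on all 3 arrays multiplies each array by a constant, so it could not change these distances. With local background subtracted the distances were -0.11 and -0.00067, and with normexp on the spot alone -0.49 and -0.23. The comparisons share arrays, so the values in one are not independent of those in another.

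These shares depend on the background correction. Under a normexp correction that used the local background column, the share at least 2-fold apart was 11.1% against 7.48% of all genes in spleen Venus+ against B220+ cells, 20.3% against 12.4% in bone marrow Venus+ against B220+ cells and 14.5% against 4.05% between the Venus+ populations, the opposite order to the one above. With local background subtracted, the last comparison also turned, to 33.3% against 24.5%. With normexp on the spot alone the shares were 13.9% against 13.6%, 21.7% against 25.2% and 2.90% against 3.32%. The other 5 settings tried kept the translation genes below all genes in each comparison. All 5 keep the subtraction of the blank mean used here, so they cannot show how the shares depend on background. Of these, the deposited values repeat the processing used here, and the mean of probes changes only 1 gene of the set.

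**Figure D2:**
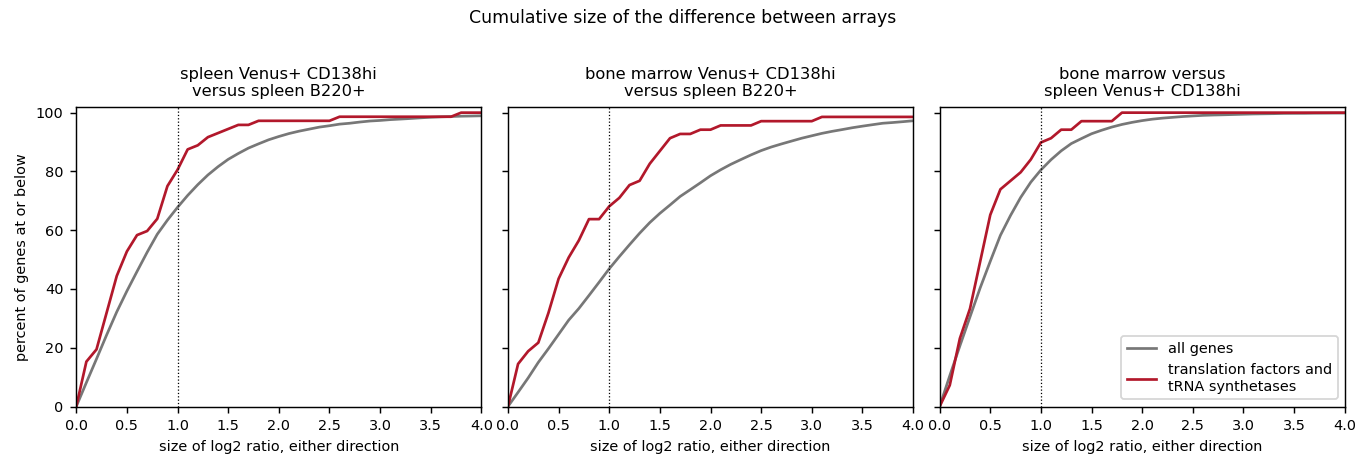
Cumulative percent of genes (vertical axis) at or below a given size of log2 ratio in either direction (horizontal axis), for all genes detected on both arrays and for the translation genes, in the 3 comparisons; the dotted line marks 2-fold. At 2-fold the translation genes reach 80.6%, 68.1% and 89.9%, against 67.8%, 46.9% and 80.5% of all genes.

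Cytosolic aminoacyl-tRNA synthetases, which attach amino acids to the tRNAs used in the cytosol, included 14 genes detected on all 3 arrays. In spleen Venus+ cells 1 was at least 2-fold higher than in B220+ cells and 0 lower, in bone marrow Venus+ cells 3 were higher and 0 lower, and between the Venus+ populations 0 of 14 passed 2-fold. The higher shares, 7.14% and 21.4%, lay below the 15.7% and 22.4% of all genes. The asparaginyl-tRNA synthetase gene Nars had signals of 129 in B220+ cells, 241 in splenic and 374 in bone marrow Venus+ cells. Both Venus+ values stood above B220+, with log2 ratios of 0.90 ± 0.14 in spleen and 1.54 ± 0.13 in bone marrow. The tyrosyl-tRNA synthetase gene Yars followed the same order at 208, 345 and 458, or 0.73 ± 0.14 and 1.14 ± 0.13. For the cysteinyl-tRNA synthetase gene Cars the signals were 59.3, 134 and 119, so that spleen Venus+ was the highest, at 1.18 ± 0.14, and bone marrow lay just past the 2-fold line. Under both normexp settings the called ratios of these 3 genes were under 2-fold in the same direction. The spleen ratio of Yars, which was not called, became -2.42 with local background subtracted and was also negative under normexp with local background.

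The other cytosolic synthetases lay within 2-fold in each comparison. Qars, for glutamine, came nearest to it on the lower side, with 553, 309 and 279, or -0.84 ± 0.14 in spleen and -0.99 ± 0.13 in bone marrow. The histidyl-tRNA synthetase gene Hars was nearly level at 137, 142 and 129. Eprs, whose product charges both glutamate and proline, gave 171, 224 and 126 and stood -0.84 ± 0.11 in bone marrow against spleen Venus+ cells. Across Gars, Iars, Kars, Lars, Mars, Rars, Tars and Wars the log2 ratios ran from -0.45 to 0.59 in spleen Venus+ against B220+ cells and from -0.48 to 0.62 in bone marrow Venus+ against B220+ cells.

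Several synthetase genes are known targets of ATF4, which with C/EBP proteins binds a composite element, so promoters of 250 bases before to 50 after the gene start were read for the letters TGATGNAA on both strands. RefSeq promoters (GRCm38.p6) matched 56 of the 75 genes by symbol, Hars2 and Vars2 being left unmatched because each symbol is also an older name of another gene. The letters stood in 5 of 9 matched cytosolic synthetase genes (55.6%: Aars, Gars, Iars, Tars and Yars) and in 0 of 7 mitochondrial ones. They stood in 12.5% of all matched translation genes, in 3.40% of 13127 matched genes of the array and in 4.51% of all 27025 genes of the promoter table. The sites of the 4 detected genes are shown 5′ to 3′ because they hold the same core beside unlike signals, with the 8 matched letters in capitals.
Yars, chr4:129189896-129189923, plus strand: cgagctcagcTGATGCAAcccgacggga
Iars, chr13:49682127-49682154, minus strand: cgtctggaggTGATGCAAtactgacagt
Tars, chr15:11399656-11399683, plus strand: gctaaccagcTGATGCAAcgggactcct
Gars, chr6:55037961-55037988, minus strand: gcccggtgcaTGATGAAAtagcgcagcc

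The Yars, Iars and Tars sites read TGATGCAA and the Gars site TGATGAAA. Of these 4 genes only Yars passed 2-fold. Iars had signals of 241, 250 and 183, Tars 197, 204 and 153, and Gars 570, 449 and 414, each within 2-fold in all 3 comparisons. A match is a run of letters and not a measured binding site.

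Among synthetase genes reported elsewhere as ATF4 targets, 10 of 11 on the array were detected, and 1 was higher in splenic and 3 in bone marrow Venus+ cells against B220+, with 0 lower in either. These shares, 10% and 30% higher, stand beside 15.7% and 22.4% of all genes. The median log2 ratios were 0.32 and 0.22, or 0.33 and 0.47 above the all-gene medians. The multi-synthetase complex, a cytosolic assembly of synthetases and scaffold proteins, had 10 genes on the array and all were detected. Among them, 1 gene passed 2-fold in any comparison: the scaffold gene Aimp1, at 383, 256 and 186, was lower in bone marrow Venus+ cells at -1.04. That is 10% of the complex, beside 53.1% of all genes in either direction in that comparison. The other comparisons had 0%, beside 32.2% in spleen Venus+ against B220+ cells and 19.5% between the Venus+ populations.

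Synthetases named with a final 2 charge mitochondrial tRNAs, and 2 of these 10 symbols, Hars2 and Vars2, are uncertain because each is also listed as an older name of another gene. Against B220+ cells 2 were lower in spleen Venus+ cells and 0 higher, and 2 were lower in bone marrow Venus+ cells and 0 higher, with 2 more detected in B220+ but not in bone marrow Venus+ cells. The called shares, 20% and 25%, were near the 16.5% and 30.7% of all genes. The median log2 ratios were -0.31 and -0.46, and without Hars2 and Vars2 -0.55 and -0.60.

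The methionyl-tRNA synthetase gene Mars2 had signals of 68.8 in B220+ cells, 28.2 in splenic and 16.4 in bone marrow Venus+ cells. Its log2 ratios to B220+ were -1.29 ± 0.14 and -2.07 ± 0.17. Its cytosolic counterpart Mars, at 529, 387 and 502, stayed within 2-fold. The tyrosyl pair differed in direction: Yars2 stood highest in B220+ cells at 69.2, 39.2 and 27.4, or -0.82 ± 0.14 and -1.34 ± 0.15, where Yars was the higher in both Venus+ populations under the processing used here.

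Lars2, for leucine, was the gene of this group called between the Venus+ populations. Signals were 2892 in B220+ cells, 886 in splenic and 2253 in bone marrow Venus+ cells, so the spleen Venus+ array stood apart from the other two. It was 3.27-fold lower in spleen Venus+ than in B220+ cells (-1.71 ± 0.14), and 2.54-fold higher in bone marrow than in spleen Venus+ cells (1.35 ± 0.11). The difference between bone marrow Venus+ and B220+ cells was -0.36 ± 0.13.

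The tryptophanyl-tRNA synthetase gene Wars2 gave 17.9 in B220+ and 8.97 in spleen Venus+ cells and was undetected in those of the bone marrow, at least 7.60-fold below B220+ and at least 3.81-fold below spleen. Iars2, at 5.46 and 6.81, was likewise undetected in bone marrow, which places it at least 2.32-fold below B220+ and 2.90-fold below spleen Venus+ cells. Detection on the B220+ array alone with a bound of 2-fold or more applied to 3.42% of all genes in that comparison, and detection on the spleen Venus+ array alone to 1.87%. The remaining genes, Fars2, Hars2, Nars2, Pars2 and Vars2, were within 2-fold throughout, Vars2 reaching -0.94 ± 0.11 between the Venus+ populations at 172, 291 and 152.

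Of 9 detected mitochondrial translation factor genes, 3 were lower in splenic and 5 in bone marrow Venus+ cells against B220+, and 0 were higher in either. The lower shares were 33.3% and 55.6%, against 16.5% and 30.7% of all genes. Genes outside the set, such as these and the stress and mTORC1 genes below, were not followed singly under the other processing settings. The median log2 ratio in bone marrow Venus+ cells was -1.51, which lay 1.26 below the all-gene median. Guf1, a ribosome-bound elongation GTPase, gave 29.4, 13.9 and 2.54, close to the detection limit in bone marrow. Gfm1, a mitochondrial elongation factor G, gave 179, 76.1 and 56.4, and Mtif2, the mitochondrial initiation factor 2, gave 139, 70.1 and 42.4.

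The eIF2 and start-site group held 12 genes detected on all 3 arrays. In spleen Venus+ cells 0 were higher and 1 lower (8.33%) than in B220+ cells, in bone marrow Venus+ cells 1 was higher and 2 were lower (16.7%), both lower shares under those of all genes, and 0 of 12 passed 2-fold between the Venus+ populations. The eIF2B complex, which reloads eIF2 with GTP, had its subunits on both sides. Eif2b1, for the alpha subunit, gave 174 in B220+ cells, 84.6 in splenic and 66.5 in bone marrow Venus+ cells, or -1.04 ± 0.14 and -1.39 ± 0.14 against B220+. Eif2b3, for the gamma subunit, ran the other way at 69.4, 118 and 144, or 0.77 ± 0.14 and 1.05 ± 0.13. The other subunits did not pass 2-fold: Eif2b2, Eif2b4 and Eif2b5 ran from -0.37 to 0.21 against B220+ in the 2 tissues.

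Eif2a, which encodes a factor that can deliver the initiator tRNA without eIF2, gave 474, 260 and 180, or -0.87 ± 0.14 and -1.40 ± 0.13 against B220+. Its symbol is also listed as an older name of Eif2s1, so the assignment is less certain. Eif2s1 itself, for the alpha subunit of eIF2 that the kinases phosphorylate, was dim at 9.68 in B220+ cells and was not detected in either Venus+ population, at least 5.57-fold below in spleen and 4.11-fold below in bone marrow. Detection on the B220+ array alone with such a bound applied to 0.909% of all genes in the spleen comparison. Eif2s3x, for the gamma subunit, gave 69.7, 70.7 and 36.6, level between the spleen populations and -0.95 ± 0.12 in bone marrow against spleen Venus+ cells.

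The other detected genes of this group stayed within 2-fold. Eif5, for the GTPase-activating protein of eIF2, gave 1235, 1098 and 1181, and Eif5a, for the hypusine-bearing factor that helps ribosomes through stalling sequences, gave 1189, 1552 and 1219. Eif1a, Eif1b and Eif5b had log2 ratios between -0.80 and 0.03 against B220+ cells.

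The set held 2 eIF2 kinase genes, of which 1 was lower in spleen Venus+ and both in bone marrow Venus+ cells than in B220+ cells. These shares, 50% and 100%, rest on 2 genes and stand beside 16.5% and 30.7% of all genes. Eif2ak4 encodes GCN2, which senses uncharged tRNA. It gave 152 in B220+ cells, 56.7 in splenic and 27.2 in bone marrow Venus+ cells, stepping down from one array to the next. The log2 ratios were -1.43 ± 0.14 and -2.49 ± 0.15 against B220+, a 2.69-fold and a 5.60-fold lower signal, and -1.06 ± 0.13 between the Venus+ populations. Under normexp with local background these became -0.43, -0.44 and -0.015, and the last value was under 2-fold in 5 of the 8 alternatives. Eif2ak2, for the kinase PKR that senses double-stranded RNA, was dim at 8.40, 7.94 and 3.05. Its ratios of -1.46 ± 0.58 and -1.38 ± 0.59 in bone marrow carried the widest spot errors of the called genes in those comparisons, and they became -0.12 and 0.05 under normexp with local background and 0.04 and -0.07 under normexp without it.

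The kinase gene left out of the set and the stress genes downstream of these kinases did not move as 1 group. Eif2ak3 gave 495, 241 and 160, or -1.04 and -1.63 against B220+. Of 12 integrated stress response genes, Eif2ak3 included, 10 were detected on both arrays of each comparison with B220+, and in each 3 were higher and 2 lower. The shares of 30% higher and 20% lower stand beside 15.7% and 16.5% of all genes in spleen and 22.4% and 30.7% in bone marrow. Asns, the asparagine synthetase gene and a classical ATF4 target, gave 2.81 in B220+ cells, 176 in splenic and 241 in bone marrow Venus+ cells. Chac1, which degrades glutathione, was not detected in B220+ cells and gave 123 and 131. Atf4 itself gave 842, 948 and 708, and Ddit3, for the stress factor CHOP, gave 363, 266 and 329, both within 2-fold. The 2 regulatory subunits of the eIF2 phosphatase stood on opposite sides, with Ppp1r15a at 20.3, 191 and 88.1 and Ppp1r15b at 416, 148 and 97.4.

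The eIF3 complex, the largest initiation factor and a scaffold on the small subunit, was listed by its old subunit numbers, and all 11 genes were detected on all 3 arrays. Against B220+ cells 1 was lower in splenic (9.09%) and 2 in bone marrow Venus+ cells (18.2%), both under the shares of all genes, and 0 were higher in either. Eif3s6, known today as Eif3e, gave 752 in B220+ cells, 354 in splenic and 236 in bone marrow Venus+ cells. Its log2 ratios were -1.09 ± 0.14 and -1.67 ± 0.13, and the bone marrow value stayed at least 2-fold under all 8 alternatives. Eif3s3, known today as Eif3h, gave 2029, 1077 and 902, or -0.91 ± 0.14 and -1.17 ± 0.13. Under normexp with local background the spleen and bone marrow values of Eif3s3 turned to 2.70 and 1.01.

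The other eIF3 subunits ran from -0.66 to 0.21 in bone marrow Venus+ against B220+ cells. Eif3s2 (Eif3i) gave 2098, 1810 and 1942, and Eif3s6ip (Eif3l) gave 318, 369 and 323, nearly level on all arrays. Eif3s9 (Eif3b) and Eif3s10 (Eif3a) were highest in spleen Venus+ cells, at 186, 301 and 215 and at 130, 176 and 101. Eif3s1 (Eif3j1) had 3 probes that differed. The probe brightest by its log2 signal averaged across arrays (99.8, 82.8 and 98.4) stood for the gene and gave -0.02 in bone marrow Venus+ against B220+ cells. The others gave 0.06 (67.2, 68.4 and 70.0) and -2.34 (163, 100.2 and 32.2); the latter was the brightest on both spleen arrays and would have called the gene lower in bone marrow Venus+ cells.

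The eIF4 group, which binds the cap and unwinds the leader, had 10 genes detected on all 3 arrays. In spleen Venus+ cells 1 was higher and 1 lower than in B220+, in bone marrow Venus+ cells 1 was higher and 3 were lower, and between the Venus+ populations 1 was lower in bone marrow. The lower shares of 10% and 30% against B220+ stand beside 16.5% and 30.7% of all genes. Eif4e, for the cap-binding protein, gave 98.9 in B220+ cells, 48.7 in splenic and 35.4 in bone marrow Venus+ cells. The ratios were -1.02 ± 0.14 and -1.48 ± 0.14, so B220+ was the highest and the spleen value lay at the 2-fold line.

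The Eif4e promoter is known for E-boxes bound by Myc, and RefSeq's window held the letters CACGTG at 2 places. They are shown with the matched letters in capitals.
Eif4e, chr3:138527030-138527055, plus strand: cgccagcgacCACGTGatcacttttt
Eif4e, chr3:138527194-138527219, plus strand: acacgtccgtCACGTGggcaggagcc
Eif4g1, chr16:20672663-20672688, plus strand: cagtgggtgtCACGTGatggggcgga
Eif4g1, chr16:20672732-20672757, plus strand: ctgcgccggtCACGTGgggcgctggc

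Promoters of 14 of the 56 matched translation genes (25%) held these letters, against 10.1% of the matched genes of the array and 8.09% of all genes of the promoter table. Besides Eif4e and Eif4g1 they included Eif4a1, Eef2, Eef2k, Eif5a, Eif1b, Eif3s5, Eif3s10, Eif3s12, Aars, Iars, Tars and Eif5a2. The letters TGACGTGG of an XBP1 or ATF6 element stood in 1 gene of the set, Eif3s10 (1.79%, against 0.945% of the matched genes of the array). Of the detected genes with an E-box, only Eif4e and Eef2k passed 2-fold in any comparison. Eif4e was lower in both Venus+ populations than in B220+ cells. Eef2k, a dim gene, was higher in spleen Venus+ cells than in either other population. The other detected genes, Eef2 among them, stayed within 2-fold, and a part of the letters in these signals was not tested.

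Of the eIF4G scaffolds, which bridge the cap complex to eIF3, 1 was higher and 1 lower in bone marrow Venus+ cells. Eif4g3 was dim in B220+ cells at 8.99 and gave 16.6 in splenic and 24.8 in bone marrow Venus+ cells, or 0.89 ± 0.19 and 1.46 ± 0.18. Its bone marrow ratio reached 2-fold in 5 of the 8 alternatives and was 0.05 at the lowest. Eif4g2, for a factor of cap-independent initiation that does not bind eIF4E, gave 921, 524 and 395, or -0.81 ± 0.14 and -1.22 ± 0.13. Eif4g1, at 126, 107 and 67.4, did not pass 2-fold.

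Helicase genes differed as well. Eif4a2 gave 2890, 2531 and 1289, near level between the spleen populations and lower in bone marrow Venus+ cells, at -1.16 ± 0.13 against B220+ and -0.97 ± 0.11 against spleen Venus+ cells. Eif4a1, at 852, 798 and 596, stayed within 2-fold. Eif4b, for the cofactor of the helicase, gave 80.4, 241 and 125, so spleen Venus+ cells were the highest. It was 3.00-fold higher there than in B220+ cells (1.59 ± 0.14), at least 2-fold under all 8 alternatives, and 0.63 ± 0.13 in bone marrow. Its symbol is also listed as an older name of Eif4a2.

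Eif4enif1, for the protein that shuttles eIF4E between nucleus and cytoplasm, gave 65.2, 85.2 and 39.5, or -1.11 ± 0.12 in bone marrow against spleen Venus+ cells. The eIF4E homologues Eif4e2 and Eif4e3 remained within 2-fold, at 108, 191 and 178 and at 29.4, 19.7 and 20.2.

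The 4E-binding proteins hold eIF4E away from eIF4G until mTORC1 phosphorylates them, and the genes for 2 of them moved in opposite directions. Eif4ebp1 gave 13.8 in B220+ cells, 27.7 in splenic and 35.0 in bone marrow Venus+ cells, or 1.01 ± 0.16 and 1.34 ± 0.16. Eif4ebp2 gave 42.8, 24.3 and 14.7, or -0.82 ± 0.15 and -1.54 ± 0.18. The order of the 3 arrays was reversed between them. Under normexp with local background the spleen ratio of Eif4ebp1 was -0.03.

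Of 13 genes of mTORC1 and cap-dependent control detected in the spleen comparison, 2 were higher (15.4%, against 15.7% of all genes) and 0 lower (against 16.5%). Of 11 in the bone marrow comparison, 0 were higher (against 22.4%) and 2 lower (18.2%, against 30.7%). Rptor, for the mTORC1 subunit Raptor, gave 52.4, 46.6 and 24.7, and Mlst8, for another subunit, gave 68.4, 49.3 and 25.9, both lower in bone marrow Venus+ cells. Larp1, for a binder of mRNAs that encode translation factors, was higher in spleen Venus+ cells, at 26.0, 70.3 and 29.0. Of 5 poly(A)-binding genes, Pabpc4 had the same order at 153, 392 and 188, and Paip2, for an inhibitor of poly(A)-binding protein, was lower in both Venus+ populations at 916, 274 and 220.

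Elongation factors included the most divergent gene of the whole set. Eef1a2 encodes the second isoform of the tRNA-delivering factor eEF1A, known for its use in neurons and muscle. It gave 9.70 in B220+ cells, 131 in splenic and 298 in bone marrow Venus+ cells. The signal was 13.5-fold higher in spleen Venus+ cells (3.75 ± 0.17) and 30.7-fold higher in bone marrow Venus+ cells (4.94 ± 0.17), and it was 2.28-fold higher in bone marrow than in spleen Venus+ cells (1.19 ± 0.11). Over the 8 alternatives the ratio to B220+ ran from 1.29 to 3.80 in spleen and from 1.81 to 5.23 in bone marrow.

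The common isoform Eef1a1 was bright and nearly level, with 27624, 23290 and 18331, or -0.25 ± 0.14 and -0.59 ± 0.13 against B220+. Eef1b2 gave 4721, 4772 and 4392, and Eef2, for the translocase, gave 2680, 3433 and 2739, neither passing 2-fold. Eef1d, for a subunit of the eEF1A exchange factor, was dim at 9.93, 19.1 and 29.0, or 0.95 ± 0.18 and 1.54 ± 0.17. The bone marrow ratio of Eef1d reached 2-fold in 5 of the 8 alternatives and was 0.08 at the lowest. Eef1e1, whose product is part of the multi-synthetase complex, gave 174, 123 and 123.

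Eef2k, for the kinase that phosphorylates and slows eEF2, stood highest in spleen Venus+ cells. It gave 9.01 in B220+ cells, 23.2 in splenic and 6.84 in bone marrow Venus+ cells. The ratio to B220+ was 1.36 ± 0.18 in spleen and -0.40 ± 0.30 in bone marrow, and bone marrow stood -1.76 ± 0.28 against spleen Venus+ cells. All values were dim, and both calls were under 2-fold under the normexp settings and with local background subtracted.

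Of the 4 Argonaute genes, 2 were lower in both Venus+ populations than in B220+ cells. That is 50% of the 4 compared in spleen and 66.7% of the 3 compared in bone marrow, against 16.5% and 30.7% of all genes. Eif2c2 (Ago2), for the Argonaute that can cut its target, gave 53.6 in B220+ cells, 22.0 in splenic and 6.67 in bone marrow Venus+ cells, stepping down at each array. Its log2 ratios were -1.28 ± 0.15 and -3.01 ± 0.29 against B220+ and -1.73 ± 0.28 between the Venus+ populations. Under normexp with local background they became -0.28, -0.40 and -0.11. Eif2c4 (Ago4) took the same order at 62.8, 30.6 and 17.2, or -1.04 ± 0.14 and -1.87 ± 0.17. The spleen ratio of Eif2c4 reached 2-fold in 3 of the 8 alternatives and its bone marrow ratio in 6.

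Eif2c1 (Ago1) was dim and within 2-fold, at 12.7, 8.53 and 7.41. Eif2c3 (Ago3) lay close to the detection limit at 1.85 in B220+ cells and gave 10.8 in spleen Venus+ cells, or 2.54 ± 0.55, and was undetected in those of the bone marrow, at least 4.59-fold below spleen. The spleen ratio of Eif2c3 was -0.06 under normexp with local background. Leaving the 4 Argonautes out, the set held 11 genes at least 2-fold apart in spleen Venus+ against B220+ cells, 20 in bone marrow Venus+ against B220+ cells and 6 between the Venus+ populations. These are 16.2%, 30.3% and 9.09% of the genes compared, against 32.2%, 53.1% and 19.5% of all genes.

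Few single calls held at 2-fold under every setting. In spleen Venus+ against B220+ cells these were Eef1a2, Eif4b and Lars2 of the 14 genes called, in bone marrow Venus+ against B220+ cells Eef1a2 and Eif3s6 of 22, and between the Venus+ populations 0 of 7. Under the deposited processed values all 14, 22 and 7 were kept. The processing used here recomputes those values, so this is no separate check. The mean of probes could change only Eif3s1, the 1 gene of the set with several probes, which was not called. Under normexp with local background 4, 5 and 0 were kept.

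**Figure D3:**
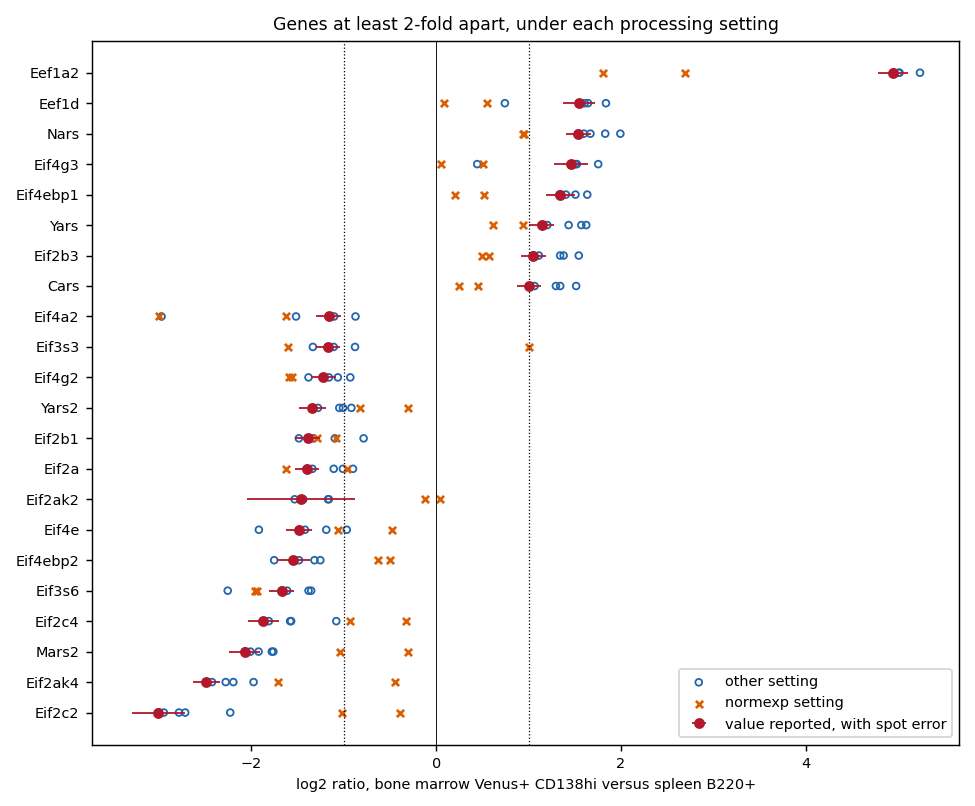
Log2 ratio of bone marrow Venus+ against spleen B220+ cells (horizontal axis) for the 22 genes called at 2-fold, with the reported value and its spot error, the normexp settings as crosses and the other settings as open circles; dotted lines mark 2-fold. Eef1a2 and Eif3s6 stay beyond 2-fold throughout, and a normexp cross of Eif3s3 lies on the opposite side at 1.01.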

How the data were processed

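B220+ spleen cells and Venus+ CD138hi cells of spleen and bone marrow were each measured on 1 Cy5 array. Per the file headers, the authors deposited scanner files of spot median intensity and a local background. Per the series' design text, the authors also deposited processed intensity values, with the blank mean subtracted and the median of detected signals set to 25. No source used here gives the version of the extraction software.

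Signals were recomputed from the scanner files: the mean of the central 90% of blank spots was subtracted, detection was set at 2 SD above it, and the median of detected probes was scaled to 25. Detection then differed from the deposited values for 0 probes on each array. The deposited table is linear and uncentred, with a median of 25 in each column. Faulty spots (0 to 2 an array) were left out. No other per-sample columns were used.

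Of 23473 probes, 16631 had 1 gene symbol and 6842 none; 3947 symbols were updated through the RefSeq table of GRCm38.p6, and 16 of the 75 genes described carry an older name, printed as the annotation gives it. Each gene took its brightest probe, judged by the log2 signal averaged across arrays. No test was made with 1 array per population. The number of arrays limits the precision, and the spot error combines blank spots and 2 positive controls of 24 copies each. In each role and comparison, up to 4 genes with the largest ratio past 2-fold were named, with all bounds of 2-fold or more, a fixed list of core factors and genes near equal signal; genes named beyond this were chosen after their values were seen.

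Members and gene lists were chosen with earlier results of these data known. Alternatives were the deposited values, normexp (limma 3.58.1, offset 50), local background subtraction, 2 other scalings, a limit of 3 SD and the mean of probes; normexp without local background was added after the data were seen. Python 3.11.15 and R 4.3.3 were used. The steps were tested on simulated arrays, where known ratios were recovered for arrays of like sensitivity; for arrays of unlike sensitivity all ratios shifted slightly, and the tolerance for that case was widened after a first run missed it.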

Additional observations from a re-analysis of the deposited data

How the results depend on the processing

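With the deposited processed values and with the mean of all probes, every count and median of the set stayed within its limits. The first repeats the processing used here and the second can change only 1 gene of the set, Eif3s1. Neither is a separate check of the calls. The local background column rose with the spot itself (Spearman's rho of 0.946, 0.942 and 0.928 across probes of an array); what the scanner software measured there is not known. Under normexp with local background, 3 genes were lower in spleen Venus+ against B220+ cells, 4 were higher in bone marrow Venus+ against B220+ cells, and between the Venus+ populations 1 was higher and 9 were lower with a median of -0.19. Among genes called at 2-fold it turned the direction of Eif2c3 (-0.062) and Eif4ebp1 (-0.028) in spleen Venus+ against B220+ cells, of Eif3s3 in bone marrow Venus+ against B220+ cells (1.01) and of Eif2ak2 between the Venus+ populations (0.050). It also turned 23, 9 and 17 of the 58, 47 and 62 genes under 2-fold in the 3 comparisons, and subtraction of local background turned 17, 11 and 20. Under one or both of these settings Yars, Kars, Eif4a1, Eef1b2, Eif3s1, Eif3s3, Eif4e and Yars2 stood at least 2-fold the other way in some comparison. Normexp without local background, chosen after seeing the data, gave 2 genes higher in the spleen comparison, 1 higher and a median of -0.56 in the bone marrow comparison with Eif2ak2 turned to 0.040, and 1 higher and 1 lower between the Venus+ populations. The higher share of all genes called was then 25.9%, 21.2% and 16.4% in the 3 comparisons, and 23.8% in the bone marrow comparison under normexp with local background.

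With local background subtracted, the spleen median was -0.23, and between the Venus+ populations 12 genes were lower and 10 higher, the median being -0.18. Scaling to probes detected on all 3 arrays gave medians of -0.12 in bone marrow Venus+ against B220+ cells and -0.015 between the Venus+ populations, with 3 genes lower in the latter. Quantile normalization gave 11 genes higher in the spleen comparison, a median of -0.15 in the bone marrow comparison, and 3 lower with a median of -0.15 between the Venus+ populations. With a limit of 3 SD, 5 genes were lower in the spleen comparison. The cause of these shifts was not tested. No paired analysis was possible because each population has 1 array and the labels give no replicate numbers. Probes near the detection limit, such as those of Eif2c3, Eif2ak2 and Guf1, have signals close to the spread of blank spots.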
